A study of Mus musculus with 4 samples.

Results

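The early factors that define the 3′ splice site of an intron were followed in the hippocampus of mice without the long noncoding RNA Malat1. The set is the branch point binding protein Sf1, the U2 auxiliary factor subunits U2af2 and U2af1, the SF3A genes Sf3a1, Sf3a2 and Sf3a3, and the SF3B genes Sf3b1, Sf3b2, Sf3b3 and Sf3b4. Its members were taken as the rows of the deposited table whose only gene symbol in the platform annotation was one of these 10, which found 17 rows of the 27090 singly named ones. Those rows belong to 9 of the 10 genes, of 20707 genes in all. Sf3a1 had no row of its own and has no value here. The set was selected on measured values, since the differences of U2af2 and U2af1 between the genotypes and the spread of U2af2 between the wildtype arrays were already known. Differences and spreads are therefore given as a description and support nothing.

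The study measured hippocampal RNA of untreated male C57BL/6 mice aged 3 months on Affymetrix mouse exon arrays. There were 2 wildtype mice and 2 Malat1 knockout mice, with 1 array each. The series' design text calls the wildtype and knockout animals littermates. The part of Malat1 that was deleted and the construct behind it are not given in the labels, and no sorting of cells is described although a label calls the RNA neuronal.

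In the first steps of spliceosome assembly, SF1 binds the branch point sequence of an intron. The U2AF heterodimer sits beside it, its large subunit U2AF2 on the polypyrimidine tract and its small subunit U2AF1 on the AG dinucleotide at the intron's end. The U2 small nuclear ribonucleoprotein (U2 snRNP) then replaces SF1 at the branch point, held there by its SF3A and SF3B subcomplexes. Malat1 RNA is retained in nuclear speckles, where such splicing factors are stored.

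Values are log2 array signal, so a difference of 1 is a 2-fold change of signal, and levels of different rows cannot be set against each other. A gene is given by its brightest row. Of the singly named rows, the 25% with the lowest mean over the 4 arrays (under 5.70) was left out of the fit, which left 15995 genes and 15 of the 17 rows of the set. All 9 genes passed this filter, which did not depend on genotype. The labelling kit starts from poly(A) tails and makes antisense RNA, whereas arrays of this kind are built for sense targets. The strand a row reports on is therefore unsettled.

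Malat1 itself was lower in both knockout arrays, with log2 signals of 11.19 and 11.25 in the wildtype and 8.53 and 8.70 in the knockout arrays (limma, adjusted p = 0.00639), which goes with the genotype labels. Array medians lay between 5.59 and 5.63. Across the 15995 genes, knockout replicate 2 stood apart from the other 3 arrays. Its median absolute difference per gene was 0.081 from the other knockout array, and 0.083 and 0.076 from the wildtype arrays, against 0.057 between the wildtype arrays. Over all 265511 rows, most of them unnamed, it did not stand apart as clearly, with differences of 0.160, 0.176 and 0.158 against 0.156 between the wildtype arrays. All 6 of the neuronal markers and all 6 of the hippocampal neuron markers listed passed the filter, beside 15995 of all 20707 genes. So did all 6 microglial and all 6 vascular markers, so passing does not identify the tissue.

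Across the 9 measured genes, U2af2 and U2af1 stood farthest below 0 in the knockout and the other 7 lay within 0.11 of 0. The median difference, knockout minus wildtype, was -0.05 over the 9 genes and -0.0011 over all 15995, each gene at its brightest row. Over all 15 tested rows of the set it was -0.0034, with 9 below 0, beside -0.0038 over all 20317 rows tested. Below 0 lay 7 of the 9, beside 50.8% of all genes, and 6 after quantile normalization or 8 after centring of the array medians, as the values of Sf1 and Sf3a2 changed sign. By limma with Benjamini-Hochberg adjustment over all genes, 0 of the 9 passed the threshold of 0.05, beside 0.00625% of all genes, and 0 of the 9 had an unadjusted p under 0.05, beside 3.86%. Both knockout arrays lay below both wildtype arrays in 3 of the 9 genes, U2af1, Sf3b4 and Sf3b2, beside 14.3% of all genes. None of the 9 had both knockout arrays above, beside 14.7%. The 95% interval of the difference lay within 1.5-fold in both directions for 8 of the 9 genes, U2af2 being the exception. The share over all genes was not counted, but all 62 measured genes of the 6 other spliceosomal lists given below lay within it. U2af1 was close to that bound, with a lower end of -0.57. In the fit of all rows its lower end was -0.59, beyond 1.5-fold.

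**Figure D1:**
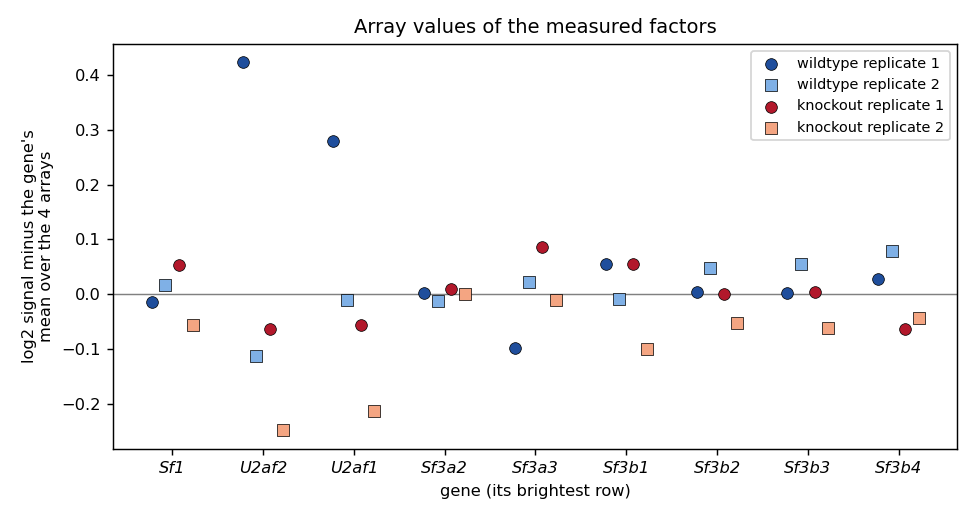
Log2 signal of each of the 4 arrays minus the gene's mean over the arrays (vertical axis) for the brightest row of the 9 measured genes (horizontal axis); each point is 1 array. Wildtype replicate 1 stands above the other 3 arrays in U2af2 and U2af1, and knockout replicate 2 is the lowest array in 6 of the 9 genes.

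Sf1, which recognises the branch point before U2 snRNP does, showed nearly the same signal in both genotypes. It read 8.60 and 8.63 in wildtype, and 8.66 and 8.55 in knockout mice. The 2 knockout values lay on either side of the wildtype ones, so the groups overlapped completely. The difference was -0.0032 ± 0.061 (SE, n = 2 arrays per group), with a 95% interval of -0.16 to 0.15.

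U2af2 encodes the subunit that reads the polypyrimidine tract. The gene lies on mouse chromosome 7. Its brightest row read 9.14 and 8.61 in wildtype against 8.66 and 8.47 in knockout mice. Wildtype replicate 1 was far above the other 3, and knockout replicate 1 lay above wildtype replicate 2, so the groups overlapped. The group means were 8.88 ± 0.38 and 8.57 ± 0.13 (SD, n = 2 each), which makes the signal 1.24-fold lower in the knockout, a difference of -0.31 ± 0.19 (SE) with an interval of -0.79 to 0.17. The same-numbered arrays differed by -0.49 (replicates 1) and -0.14 (replicates 2). Most of the difference came with wildtype replicate 1, since without that array it was -0.04. Without wildtype replicate 2 it was -0.58, without knockout replicate 1 it was -0.40 and without knockout replicate 2 it was -0.22.

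None of the remaining U2af2 rows showed a difference as large as that of the brightest row. Besides the brightest, 4 further rows with that symbol alone passed the filter, and their differences ran from -0.06 to 0.07. Row 6972610, the second brightest, read 7.93 and 7.98 in the wildtype and 8.14 and 7.91 in the knockout arrays. In that row knockout replicate 1 was the highest array and the difference was 0.07. Row 6972613 read 7.15 and 7.15 against 7.22 and 7.13, a difference of 0.02. Row 6904841 was the steadiest of the U2af2 rows, at 6.36 in each wildtype mouse against 6.35 and 6.36 in knockout mice. Row 6804703 read 6.11 and 5.96 against 5.91 and 6.05, a difference of -0.06 with overlapping groups. A sixth row, 6904829, lay under the filter, with group means of 5.07 in wildtype and 5.01 in knockout mice. Wildtype replicate 1 was its highest array and knockout replicate 2 its lowest, as in the brightest row, and its groups did not overlap. With the rows above the filter averaged, U2af2 stood at -0.05 in place of -0.31. Which part of a gene, or which related sequence, a row covers is not given in the annotation used here, for U2af2 or other genes.

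U2af1, the small subunit that contacts the AG at the 3′ splice site, lies on chromosome 17. It was the member of the U2AF pair whose groups did not overlap. Its promoter is shown because it and U2af2 shared their highest and their lowest array, and U2af2 is not in the promoter table. These are the 250 bases before the start of the first of 2 RefSeq entries (GRCm38.p6, chr17:31658765-31659014, minus strand), 5′ to 3′. Capitals mark GGGCGG, the GC box, and CCAAT, the CCAAT box, on either strand, where a single stretch holds CCAAT on both strands with the matches overlapping.
U2af1: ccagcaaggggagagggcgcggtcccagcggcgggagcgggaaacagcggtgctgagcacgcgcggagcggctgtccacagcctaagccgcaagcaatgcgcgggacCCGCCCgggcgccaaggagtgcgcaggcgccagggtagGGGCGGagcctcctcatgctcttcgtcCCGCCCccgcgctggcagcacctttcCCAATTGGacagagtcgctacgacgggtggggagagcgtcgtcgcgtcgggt

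Including the 50 bases after the start, the U2af1 window holds 40 CpG dinucleotides at a GC content of 72%. The median over the 27025 genes with a RefSeq window is 7 CpG dinucleotides and 52.7%. Of the 10 genes of the set, 8 have a window, Sf3a1 among them, and each of the 8 holds at least 20 CpG dinucleotides. GGGCGG occurs on either strand in 5 of the 8 windows (Sf3b1, Sf3a2, Sf3a1, U2af1 and Sf1) and in 35.9% of all windows. CCAAT occurs in 4 of the 8 (Sf3b3, U2af1, Sf3b2 and Sf1) and in 37.9% of all. TATAA occurs in 1 of the 8, Sf3b3, and in 25.5% of all. The full cyclic AMP response element TGACGTCA, a palindrome, occurs in 0 of the 8 and in 1.88% of all. These matches describe the letters of the windows only.

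The brightest U2af1 row read 8.60 and 8.31 in wildtype against 8.27 and 8.11 in knockout mice. Both knockout values lay below both wildtype ones, although knockout replicate 1 and wildtype replicate 2 were almost level. The group means were 8.46 ± 0.21 and 8.19 ± 0.11 (SD, n = 2 each). The knockout signal was thus 1.20-fold lower, a difference of -0.27 ± 0.12 (SE) with an interval of -0.57 to 0.03. Same-numbered arrays differed by -0.33 and -0.20. As with U2af2, wildtype replicate 1 carried much of it, since the difference was -0.12 without that array, -0.41 without wildtype replicate 2, -0.35 without knockout replicate 1 and -0.19 without knockout replicate 2. The only other singly named U2af1 row, 6962909, read 5.96 and 5.92 against 5.92 and 6.05, a difference of 0.05 with knockout replicate 2 the highest array. With both rows averaged, U2af1 stood at -0.11.

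**Figure D2:**
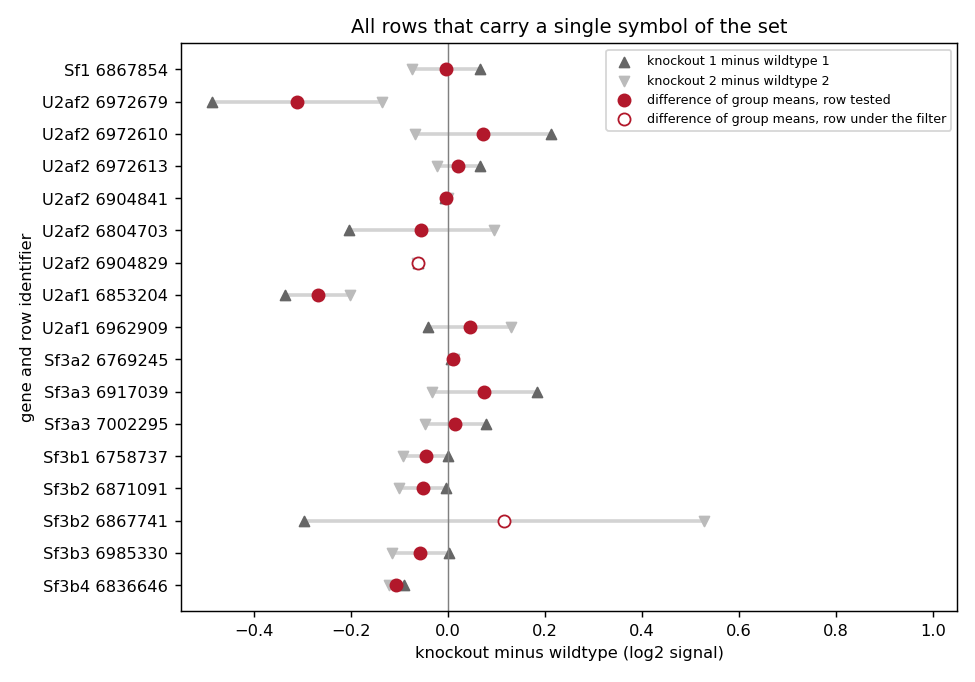
Difference between knockout and wildtype in log2 signal (horizontal axis) for all 17 rows of the 9 genes, labelled by gene and row identifier (vertical axis); circles are differences of group means, open where the row lay under the filter, and triangles are the differences of the same-numbered arrays. The brightest rows of U2af2 (-0.31) and U2af1 (-0.27) stand to the left, whereas the other rows of those genes lie between -0.06 and 0.07.

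The array order of U2af2 and U2af1 was the same at both ends, with wildtype replicate 1 highest and knockout replicate 2 lowest. Of the 9 genes these 2 showed that order, beside 9.98% of all genes. The genes whose 4 array values followed U2af1 most closely, by root mean square distance of the deviations from the gene mean, were the olfactory receptor Olfr1303 (distance 0.015), the transcript 2310075C17Rik (0.021) and Aim2 (0.022), a cytosolic DNA sensor. Those closest to U2af2 were Sbspon (0.033), Lix1 (0.034) and the olfactory receptor Olfr1044 (0.038). U2af1 was 36th closest to U2af2 of the 15994 other genes at a distance of 0.090, and U2af2 was 206th closest to U2af1. These rankings rest on 4 arrays and describe likeness of values only.

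Oligodendrocyte markers shared the highest array of U2af2 and U2af1 but not the lowest. All 5 of the measured ones among 6 (Mbp, Mog, Mobp, Mag and Cnp) were highest in wildtype replicate 1, beside 18.1% of all genes. Knockout replicate 2 was the lowest array in 0 of the 5, beside 36.6% of all genes. The summed linear signal of these markers was 1087 in wildtype replicate 1, 962 in wildtype replicate 2, and 1001 and 976 in the knockout arrays. The part of this in the U2AF values was not tested. In a dissected tissue, fewer cells of a type and less RNA per cell cannot be told apart.

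SF3A, the smaller of the subcomplexes that tether U2 snRNP to the branch point, was represented by Sf3a2 and Sf3a3. Sf3a2 was the steadiest gene of the set, with 8.26 and 8.25 in the wildtype and 8.27 and 8.26 in the knockout arrays. Its 4 values were nearly level. Its difference was 0.0098 ± 0.050 (SE), with an interval of -0.12 to 0.14. Sf3a3 read 7.10 and 7.22 in the wildtype and 7.29 and 7.19 in the knockout arrays. It was the largest positive value among the 9, 0.08 ± 0.07 (SE) with an interval of -0.10 to 0.25, but wildtype replicate 2 lay above knockout replicate 2, so the groups overlapped. The second Sf3a3 row, 7002295, read 6.59 and 6.66 against 6.67 and 6.62, a difference of 0.02 with the same lowest and highest array as the first.

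SF3B clamps the branch point helix, and its largest subunit Sf3b1 is a recurrent site of mutation in human myelodysplastic disease. The Sf3b1 row read 9.20 and 9.14 in the wildtype and 9.20 and 9.05 in the knockout arrays. Both replicates 1 were level and knockout replicate 2 was the lowest array. The difference was -0.05 ± 0.07 (SE), with an interval of -0.23 to 0.14, and it stood at 0.03 without knockout replicate 2.

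Sf3b4, an RNA-binding subunit that contacts the intron upstream of the branch point, came next after the U2AF genes in distance from 0. Its arrays read 7.30 and 7.35 in the wildtype and 7.21 and 7.23 in the knockout. The groups did not overlap, and the gap between them was larger than the spread within either group. The means were 7.32 ± 0.035 and 7.22 ± 0.014 (SD, n = 2 each), a difference of -0.11 ± 0.05 (SE) with an interval of -0.24 to 0.03. With 1 array left out the value stayed between -0.13 and -0.08. This gene had 1 row, and which sequence that row covers is not given in the annotation used here.

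Sf3b3, a scaffold subunit of SF3B, read 7.44 and 7.49 in the wildtype and 7.44 and 7.38 in the knockout arrays. Both replicates 1 were level here as well. The difference was -0.06 ± 0.06 (SE), with an interval of -0.20 to 0.09. Sf3b2, whose protein binds Sf3b4, read 7.24 and 7.29 in the wildtype and 7.24 and 7.19 in the knockout arrays. Its groups did not overlap, but the arrays numbered 1 differed by only -0.0043. The difference was -0.05 ± 0.05 (SE). A second Sf3b2 row, 6867741, lay under the filter with a knockout minus wildtype difference of 0.12, and its knockout arrays differed by 0.61 from each other.

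Sf3b2 and Sf1 lie on chromosome 19, as Malat1 does. In the RefSeq gene order, 41 annotated genes stand between Malat1 and Sf3b2 and 49 between Malat1 and Sf1. Their differences of -0.05 and -0.0032 lay among those of the other members. The remaining 7 measured genes are spread over chromosomes 1, 3, 4, 7, 8, 10 and 17.

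**Figure D3:**
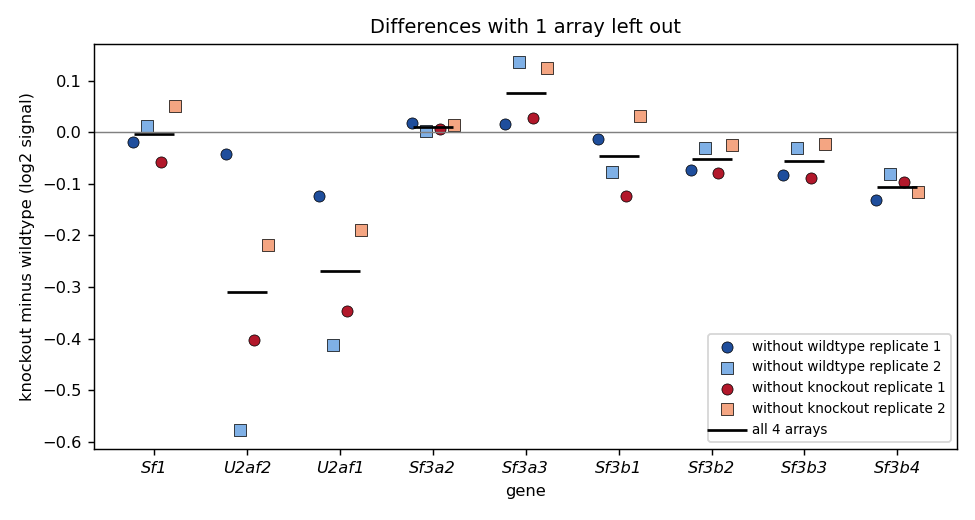
Difference between knockout and wildtype in log2 signal (vertical axis) for the 9 genes (horizontal axis), with all 4 arrays (bars) and with 1 array left out (points). U2af2 runs from -0.58 to -0.04 and U2af1 from -0.41 to -0.12, while the other 7 genes stay between -0.13 and 0.14.

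By their brightest rows, U2af2 and U2af1 had the widest gaps of the 9 genes between arrays of the same group. The Sf3b2 row under the filter had a wider gap, 0.61 between its knockout arrays. The 2 wildtype arrays differed by 0.53 in U2af2, more than in 99.0% of the 15995 genes, and 163 genes had a gap at least that large. They differed by 0.29 in U2af1, more than in 95.4%. In the other rows above the filter the wildtype gap was 0.0037 to 0.15 for U2af2 and 0.041 for U2af1. In the other 7 genes the wildtype gap ran from 0.015 (Sf3a2) to 0.12 (Sf3a3), between the 14.3rd and the 78.1st percentile. The median wildtype gap was 0.052 over the 9 genes and 0.057 over all genes.

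The knockout arrays differed by 0.19 in U2af2, 0.16 in U2af1 and 0.16 in Sf3b1, at the 85.6th, 79.4th and 79.0th percentiles. In the remaining 6 genes the knockout gap ran from 0.0092 (Sf3a2) to 0.11 (Sf1). Its median was 0.098 over the 9 genes and 0.081 over all genes. Knockout replicate 2 was the lowest of the 4 arrays in 6 of the 9 genes, beside 36.6% of all genes, and wildtype replicate 1 the highest in 2, beside 18.1%. Without knockout replicate 2 the median difference of the 9 genes was -0.02 in place of -0.05, and 5 of them lay below 0 in place of 7. Without knockout replicate 1 it was -0.09.

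**Figure D4:**
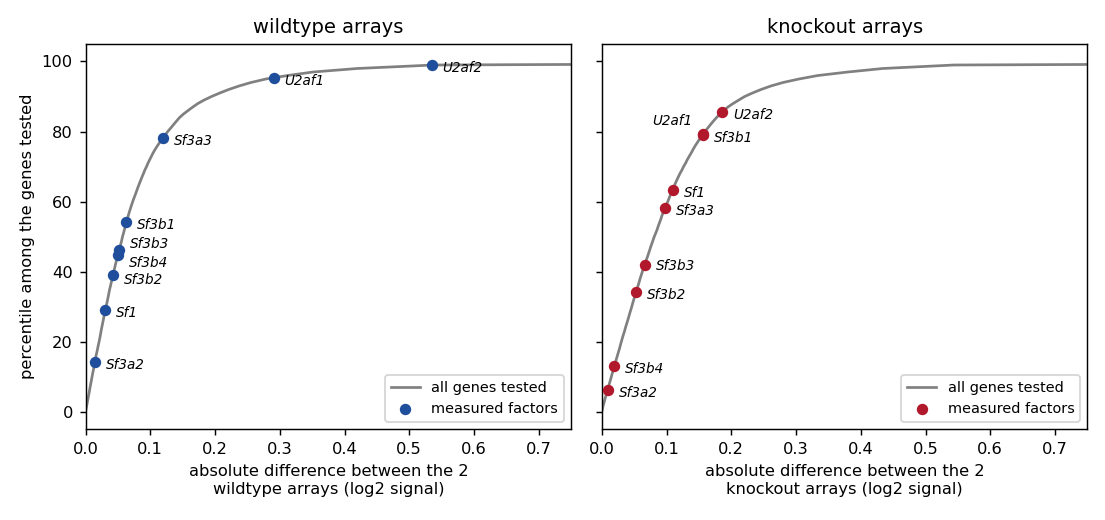
Absolute difference between the 2 arrays of a group in log2 signal (horizontal axes, with a few wider gaps beyond the range drawn) against its percentile among the 15995 genes (vertical axis), for the wildtype arrays (left) and the knockout arrays (right); the line is all genes and the points are the 9 genes. U2af2 (0.53) and U2af1 (0.29) lie at the upper end in the wildtype panel, and no other member lies above the 78.1st percentile there.

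The RNA component of the particle is U2 small nuclear RNA, and 4 rows carried the symbol Rnu2-10 alone. Row 6750410 read 7.91 and 7.66 in the wildtype and 7.31 and 6.99 in the knockout arrays, a difference of -0.64 ± 0.15 (SE in the fit of all rows). Row 6750409 read 7.75 and 7.07 against 6.93 and 6.63, a difference of -0.63 ± 0.25 (SE). In both rows wildtype replicate 1 was highest and knockout replicate 2 lowest, as in U2af2 and U2af1. Row 6750408 read 6.97 and 7.13 against 6.97 and 6.90, a difference of -0.12, and row 6783017 read 7.53 and 7.34 against 7.23 and 7.53, a difference of -0.05. Neither of these last 2 rows had wildtype replicate 1 highest together with knockout replicate 2 lowest. Among the 20317 rows tested, none of these 4 passed the adjusted threshold (limma, adjusted p = 1 for each), beside 0.00492% of all rows, and row 6750410 alone had an unadjusted p under 0.05, beside 4.02% of all rows. Of the 15 tested rows of the set, 0 passed the adjusted threshold in the same fit and 0 had an unadjusted p under 0.05. U2 RNA is made from near-identical gene copies and lacks a poly(A) tail, so what these rows read in a poly(A)-primed sample is unsettled.

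The 5 remaining protein subunits of U2 snRNP were all measured, and all 5 stood slightly below 0, with a median of -0.03. Snrpb2, which binds a stem-loop of U2 RNA, read 7.26 and 7.31 in the wildtype and 7.25 and 7.17 in the knockout arrays, a difference of -0.08. Its partner Snrpa1 was at -0.014. The small SF3B subunits Sf3b5, Phf5a and Sf3b6 were at -0.06, -0.03 and -0.02. Knockout replicate 2 was the lowest array in 4 of the 5, and without it 2 of the 5 lay below 0 and their median was 0.0058.

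Of the proteins that associate with U2 snRNP or act at the 3′ splice site, 14 of 17 were measured, with 9 below 0 and a median of -0.02. Smndc1, a survival motor neuron related splicing factor, had the largest difference. It read 6.37 and 6.43 in the wildtype and 6.34 and 6.04 in the knockout arrays, a difference of -0.21 ± 0.11 (SE) that was -0.06 without knockout replicate 2. Dnajc8 was at 0.08, with knockout arrays at 8.06 and 7.65 on either side of the wildtype ones. The U2AF paralogs U2af1l4, Zrsr1 and Zrsr2 were not measured.

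The lists of other spliceosomal particles gave differences of the same small order. For the Sm ring shared by the particles, 6 of 8 genes were measured with a median of 0.01, and Snrpd3 (0.05) and Snrpf (-0.04) stood farthest from 0. For the U1 particle and 5′ splice site proteins it was 10 of 11 genes with a median of -0.0077. There the U1 subunit Snrpc read 6.87 and 6.85 in the wildtype and 6.73 and 6.75 in the knockout arrays, a difference of -0.12 ± 0.05 (SE) with no overlap, and Tia1 was at -0.06. The tri-snRNP list had 20 of 22 genes measured and a median of -0.0099, with Lsm6 at 0.14 and Lsm7 at -0.11.

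In the U11/U12 particle of the minor spliceosome, which shares SF3B with U2, 7 of 7 genes were measured with a median of -0.03. Snrnp35 read 7.26 and 7.20 in the wildtype and 7.44 and 7.40 in the knockout arrays, a difference of 0.19 ± 0.05 (SE) with no overlap. Pdcd7 was at -0.12. Over these 6 lists, 0 of 62 measured genes passed the adjusted threshold in either direction by limma, beside 0.00625% of all genes. At an unadjusted p under 0.05 there was 1 of 62, Snrnp35, beside 3.86% of all genes.

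**Figure D5:**
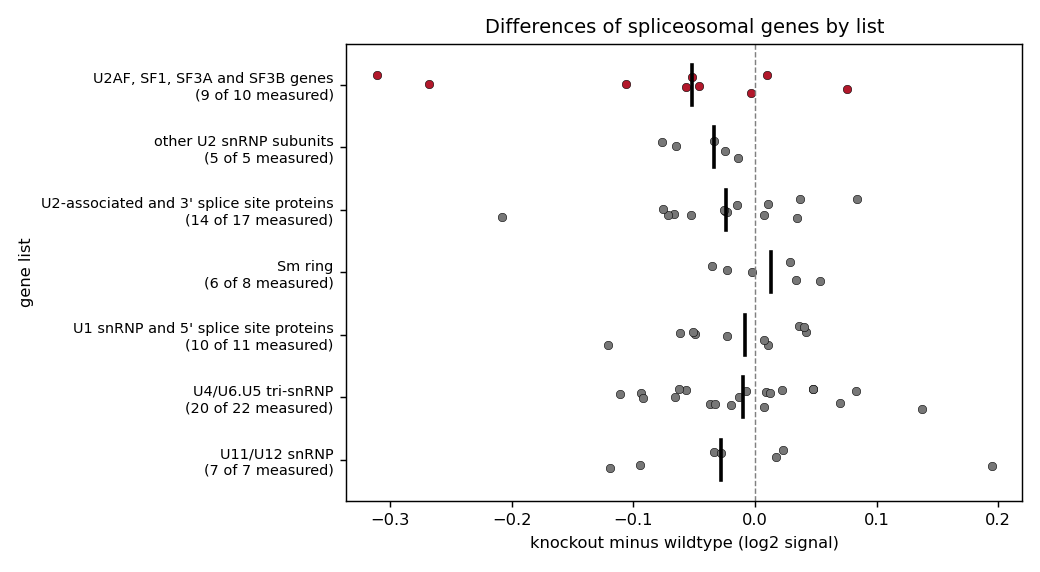
Difference between knockout and wildtype in log2 signal (horizontal axis) for each measured gene of the set and of 6 other spliceosomal lists (vertical axis); points are genes, spread vertically for visibility, and bars are list medians. U2af2 (-0.31) and U2af1 (-0.27) are the lowest points of the plot and Snrnp35 (0.19) the highest, while the list medians lie between -0.05 and 0.01.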

How the data were processed

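The deposited table holds 1 log2 value per transcript cluster and array (265511 rows, 4.16 to 14.26), a scale read from the values. The authors' background correction, summarization and software are not stated in the labels, and the submitters' processing notes name build mm9. The platform annotation gave several symbols to 2498 rows and none to 235923, and such rows were not used. The 9 measured genes matched RefSeq (GRCm38.p6) by Entrez identifier, from which chromosomes, gene order and promoter letters come. The deposited values were fitted without further scaling in limma 3.58.1 (R 4.3.3, lmFit and eBayes, two-sided), with genotype as the only term. P-values were adjusted over all genes or all rows, and 95% intervals are unadjusted. The fit was tested on simulated data. With 2 arrays per group their number limits the precision. Members, gene lists and the rule for named genes (all members and rows, the 2 largest differences per list or all of a list of up to 5, Rnu2 rows, the 3 genes most like U2af1 and U2af2) were chosen with earlier results of these data known. Members of the U2-associated list not named singly are given by counts.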

Additional observations from a re-analysis of the deposited data

How the results depend on the processing

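No member was called under any of the alternatives (quantile normalization, centred medians, an intensity trend, no filter, a filter at the 50th percentile, the mean over rows, the replicate block, or 1 array left out). Genes called numbered 1 under the first 7 and 0 to 1 with 1 array left out, being 0 without either knockout array, when the Malat1 adjusted p by limma was 0.0992 (without replicate 1) and 0.0784 (without replicate 2) at differences of -2.52 and -2.70, beside -2.61 as reported. Among single rows, 1 was called as reported, 0 without the filter, 0 under the replicate block and 0 to 0 with 1 array left out. The cause was not tested. The median of the members ran from -0.09 to -0.02. With 1 array left out, 2 members changed sign, Sf1 and Sf3b1, and under the other alternatives 2 did, Sf1 and Sf3a2. U2af2 and U2af1 kept their sign throughout but moved most, as given above. No label ties the replicate number to a litter, and deviations of same-numbered arrays correlated at 0.060 across genes; with the number as a block, 2 of 9 members instead of 0 had an unadjusted p under 0.05, beside 5.23% of all genes in that fit, and the lowest adjusted p of a member by limma was 0.679. That count was 1 after quantile normalization (3.88% of all genes), 1 after centring (3.84%) and 2 without wildtype replicate 2 (4.76%).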

Other observations

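Markers of the cell types in the dissected tissue give the setting of these values. Summed linear signal of the 6 neuronal markers was 5476 and 5643 in the wildtype and 5725 and 5555 in the knockout arrays, so the groups overlapped. Such sums follow the brightest rows most, here Slc17a7 and Camk2a, at log2 differences of 0.04 and 0.03. The other 4 neuronal markers lay below 0. The summed signal of the 6 hippocampal neuron markers was 1598 and 1563 against 1523 and 1470, lower in both knockout arrays. That order came with Prox1, a marker of dentate granule neurons at a log2 difference of -0.14, since without it the other 5 summed to 668 and 657 against 661 and 659. Of the 6 hippocampal neuron markers, both knockout arrays lay below both wildtype arrays in 2, Prox1 and Neurod6 (-0.04), beside 14.3% of all genes. They lay above in 1, Bcl11b (0.06), beside 14.7%. Of 6 astrocyte markers 4 were measured, with sums of 924 and 970 against 1024 and 952. The 6 microglial markers summed to 740 and 780 against 740 and 763, and the 6 vascular markers to 663 and 651 against 645 and 631. The vascular sums were lower in both knockout arrays. Both knockout arrays lay below both wildtype arrays in 2 of these 6, Kdr (-0.07) and Slco1a4 (-0.11), and above in 0. Choroid plexus markers, 5 of 6 measured, summed to 383 and 458 against 381 and 413. Within them Ttr, the transthyretin gene, was at -0.54 with both knockout arrays below both wildtype arrays. It was the 1 marker of any list with an unadjusted p under 0.05 by limma, beside 3.86% of all genes. Its wildtype arrays, at 6.09 and 6.58, differed by 0.50, at the 98.7th percentile of the wildtype gaps. Its knockout arrays, at 5.73 and 5.86, lay near the filter level. Folr1 was at 0.19 with both knockout arrays above both wildtype arrays. Of 6 markers of cycling cells only Aurkb lay above the filter. No marker passed the adjusted threshold by limma.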
